A study of Rattus norvegicus with 30 samples.

Results

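The proteasome genes of primary rat hepatocytes were followed through methapyrilene exposure. Members were the genes whose symbols start with Psma, Psmb, Psmc, Psmd, Psme, Psmf or Psmg and that had a probe set annotated to them alone. There were 46 such genes among the 14217 genes with a symbol of their own on the array. Of these, 44 encode proteasome subunits, activators, an inhibitor or assembly chaperones, and all 44 passed the filter on dim signals that left 10222 genes for testing. The other 2, the meiotic recombination factor Psmc3ip (log2 fold changes at 100 uM of 0.17 at 24 h and 0.15 at 48 h) and Psme3ip1 (0.07 and 0.03), share only the prefix and were not called against DMSO. Psmb6 and Psme3, whose probe sets are shared with other genes, were given no calls.

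Methapyrilene is an antihistamine that was withdrawn because it causes liver tumours in rats. Frozen hepatocytes of male Sprague Dawley rats were thawed, overlaid with Matrigel and dosed on day 3 of culture. The 6 groups were 100 uM methapyrilene for 24 h, 3 uM methapyrilene for 24 h, DMSO vehicle for 24 h, and the same doses and vehicle for 48 h, with 5 wells and 5 arrays each, so n = 5 in every group. The labels give DMSO as 1%, but describe the concentrated dosing solutions as made in 1% DMSO, so its share in the medium is uncertain. No animals are named, so p-values measure the spread between wells of purchased cells in culture, which limits them as a model of the liver. Hepatocyte markers (albumin, Apoa1, Ttr, Serpina1 and Hnf4a) summed to between 220994 and 356321 signal units on the 30 arrays. On 3 arrays, replicates 1 to 3 of 3 uM at 24 h, the beta-actin control probe set near the 3′ end gave 3.93, 5.10 and 5.30 times the signal of the one near the 5′ end, a ratio that rises as RNA is shortened. It was 2.34 to 3.43 on the other 27 arrays, so comparisons with that group are also given without those 3 arrays. The spread of each gene was estimated over all 6 groups, so those arrays also bear on the tests of 100 uM against DMSO. These tests were not repeated with just those 3 arrays left out. Fits to the compared groups alone, among the alternatives below, do omit them.

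The proteasome is the barrel-shaped protease that degrades proteins tagged with ubiquitin. Its 20S core is built of alpha rings, which gate the entrance, and beta rings, which hold the cutting sites. The 19S cap binds ubiquitin chains, removes them, unfolds the substrate with a ring of ATPases and feeds it into the core. Other activators, such as the PA28 proteins encoded by Psme1 and Psme2, can take the cap's place, and cytokines such as interferon replace the catalytic beta subunits with inducible ones. Dedicated chaperones assemble the rings and the cap. In many mammalian cells a shortfall of proteasome activity is met by the transcription factor NFE2L1, which raises most subunit genes together.

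At 100 uM, methapyrilene raised most genes of the 19S cap, all 3 of its assembly chaperones and some genes of the 20S core, by small amounts. The difference between cap and core was not tested. After 24 h, 25 of the 44 genes were called higher than in DMSO and 2, Psma3 and Psme1, were called lower (limma, adjusted p under 0.05 by Benjamini-Hochberg over 10222 genes). Over all genes tested 19.8% were called higher and 15.8% lower, and among the 3939 genes at least as bright as the dimmest member 28.5% were called higher and 23.8% lower. The median log2 fold change was 0.18 over the 44 genes and 0.04 over all genes tested. After 48 h, 22 were called higher and 1, Psme1, lower, against 18.9% higher and 14.5% lower of all genes and 26.6% and 23.3% of the 3939 brighter genes. The median was then 0.16 over the 44 genes and 0.05 over all genes. With arrays centred on their medians, 16 members were called higher at 24 h and 10 at 48 h, with 1 called lower at each time. The shares of all genes and of the brighter genes were not counted with that scaling, so these counts have none to stand beside. Called increases ran from 1.13-fold to 1.42-fold at 24 h and from 1.11-fold to 1.44-fold at 48 h, so none reached 1.5-fold. In a bulk culture, more signal per cell and a changed share of cells cannot be told apart.

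The 5 arrays of 100 uM all lay above the 5 of DMSO for 24 genes at 24 h and 23 genes at 48 h, against 14.5% and 15.8% of all genes. Of the 3939 brighter genes, 887 at 24 h and 981 at 48 h did so. So did 8 of the 13 constitutive core subunits and 11 of the 17 cap subunits at 24 h, and 6 and 13 of them at 48 h. The 100 uM arrays all lay below for 2 genes at each time, Psme1 and Psme4 at 24 h and Psme1 and Psmg4 at 48 h. This held for 11.9% and 12.1% of all genes, and for 765 and 836 of the 3939 brighter genes. Of the called increases, 20 were shared by both times, which is 80% of those at 24 h and 90.9% of those at 48 h. The same overlap was not counted over all genes, so it is not shown to be particular to the members. The increases called only at 24 h were Psma2, Psma7, Psmc3, Psmd7 and Psmg3, and those called only at 48 h were Psmc5 and Psmd3. A call at 1 time only does not show a difference between the times, and the test of that difference called 0 members.

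**Figure D1:**
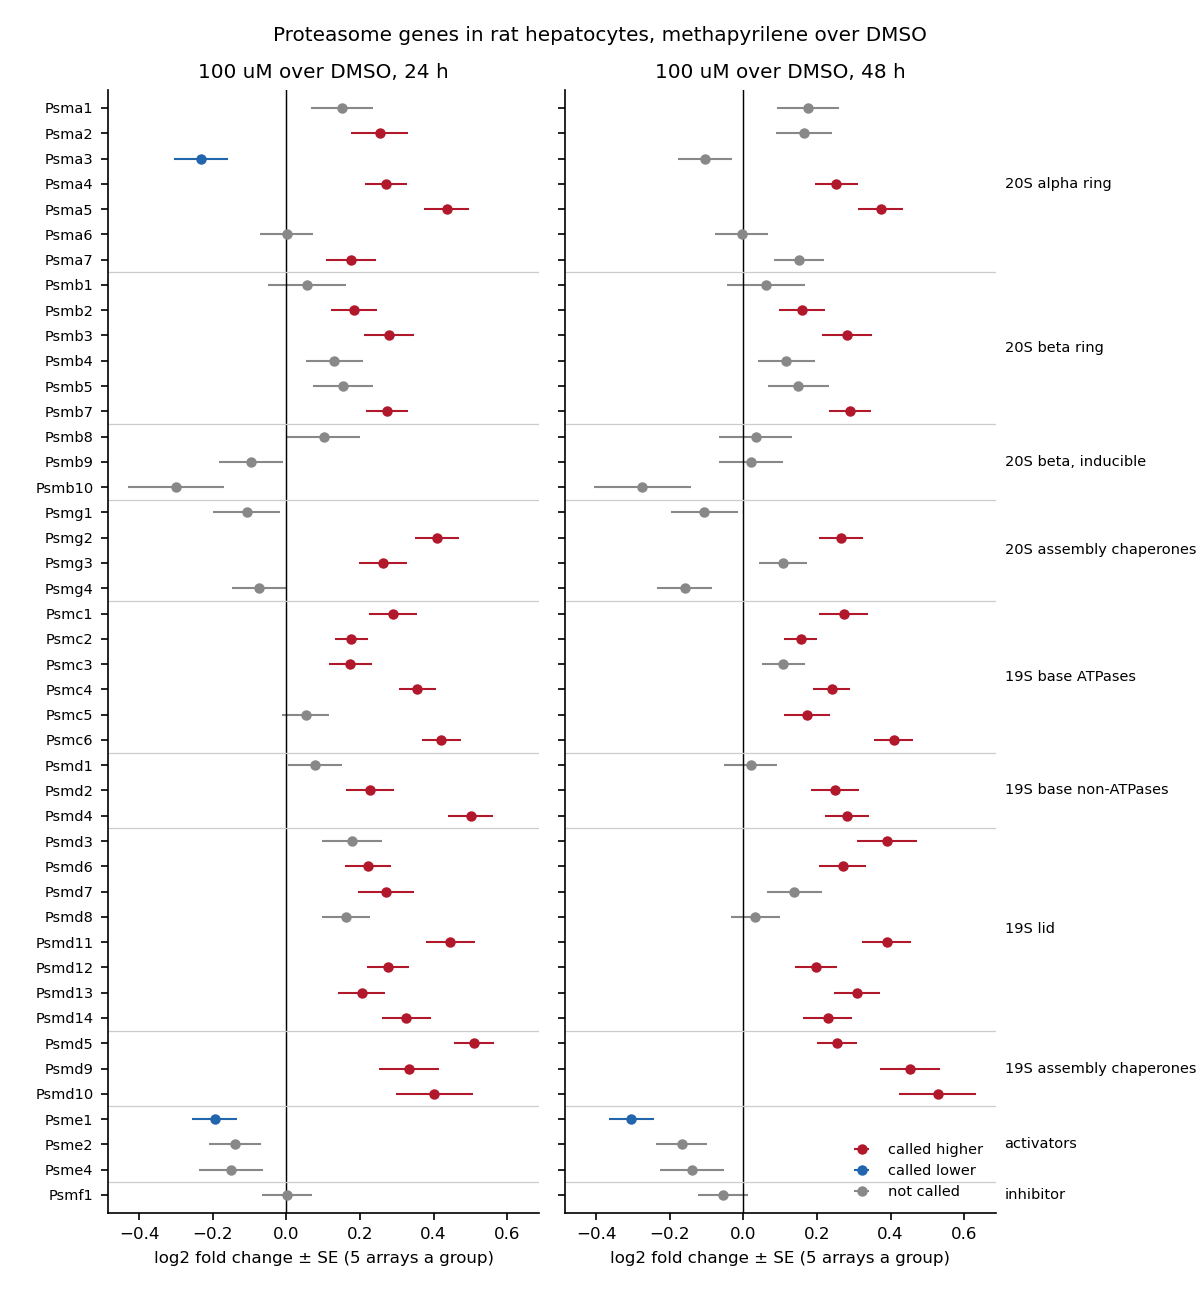
Log2 fold change of each of the 44 genes (x axis), 100 uM over DMSO, at 24 h on the left and 48 h on the right, with genes grouped by their place in the complex (y axis). Points are limma estimates from 5 arrays a group with standard errors. The 19S cap genes and the 3 cap chaperones lie right of 0 at both times. The 3 activators shown (Psme1, Psme2 and Psme4) lie left of it.

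Because 20 of the 44 genes were called higher at both times, promoters of the family were read for 3 short motifs known from proteasome genes. Sequences are the 250 bases before the transcript start that a RefSeq promoter table on build GRCr8 uses for each gene, and 40 of the 44 genes had one. In 15 of the 40 that start lies inside the gene as the RefSeq gene table draws it, so that bases of the window fall within the gene. All 250 do so for Psma6, Psmb1, Psmd3, Psmd5, Psmd11 and Psme2, 76 for Psmd9, 37 for Psmd4, 9 for Psme1, 3 for Psma5 and 0 for Psmc6. On either strand, the GC box GGGCGG, a site of Sp1-type factors, was found in 28 of the 40 (70.0%) and in 32.4% of all 27457 windows of that length. The CCAAT box (CCAAT), which NF-Y binds, was found in 19 (47.5%) and in 34.3% of all windows. The antioxidant response element core TGACNNNGC, which NFE2L1 and NFE2L2 recognise, was found in 6 of the 40 (Psma3, Psmb2, Psmb5, Psmd1, Psmd9 and Psme4) and in 10.2% of all windows. Among the 76 matches, 2 pairs of different motifs shared bases. The 27457 windows take in genes that were not tested here, so these shares are not matched to the members for signal. A match describes the letters and does not show that a factor binds there.

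Counted by call, the 17 genes with a window that were called higher at both times held the antioxidant core in 2, the CCAAT box in 10 and the GC box in 12. The 15 called at neither time held them in 3, 4 and 10. The sequences below are those of the base subunit Psmd4, the alpha subunit Psma5 and the ATPase Psmc6, which were raised, of the cap chaperone Psmd9, which was raised and holds 2 antioxidant cores, and of the activator Psme1, which was lowered. They lie at chr2:185297202-185297451 (minus strand), chr2:198584255-198584504 (plus strand), chr15:21022064-21022313 (plus strand), chr12:39018265-39018514 (minus strand) and chr15:33038721-33038970 (plus strand), and are written 5′ to 3′ with matches to any of the 3 motifs in capitals.
Psmd4: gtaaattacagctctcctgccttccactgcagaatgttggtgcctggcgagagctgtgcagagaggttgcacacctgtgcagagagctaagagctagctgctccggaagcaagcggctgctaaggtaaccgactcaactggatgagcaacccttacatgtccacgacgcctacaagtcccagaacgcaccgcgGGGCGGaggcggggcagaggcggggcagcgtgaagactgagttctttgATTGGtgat
Psma5: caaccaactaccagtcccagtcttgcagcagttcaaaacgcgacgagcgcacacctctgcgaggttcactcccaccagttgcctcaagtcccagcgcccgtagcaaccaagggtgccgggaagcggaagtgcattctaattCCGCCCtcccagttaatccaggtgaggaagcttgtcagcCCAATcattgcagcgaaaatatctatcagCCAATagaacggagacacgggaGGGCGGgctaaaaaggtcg
Psmc6: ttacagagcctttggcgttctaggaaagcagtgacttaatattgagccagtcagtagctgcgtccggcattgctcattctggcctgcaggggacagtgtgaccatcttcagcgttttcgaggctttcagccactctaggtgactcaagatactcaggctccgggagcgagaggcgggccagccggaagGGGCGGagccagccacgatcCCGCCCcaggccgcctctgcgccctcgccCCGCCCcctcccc
Psmd9: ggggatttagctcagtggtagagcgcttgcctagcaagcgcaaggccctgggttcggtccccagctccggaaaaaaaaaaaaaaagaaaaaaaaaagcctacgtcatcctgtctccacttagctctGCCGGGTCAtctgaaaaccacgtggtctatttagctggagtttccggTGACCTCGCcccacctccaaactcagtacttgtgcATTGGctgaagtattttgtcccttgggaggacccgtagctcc
Psme1: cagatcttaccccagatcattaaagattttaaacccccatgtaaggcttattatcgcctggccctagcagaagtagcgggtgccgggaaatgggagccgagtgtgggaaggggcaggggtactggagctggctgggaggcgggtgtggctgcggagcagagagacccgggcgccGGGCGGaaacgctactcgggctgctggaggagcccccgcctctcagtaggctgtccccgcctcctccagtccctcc
Psmd9 alone of the 5 holds the antioxidant core, once on each strand. Its core on the plus strand of the gene, 77 to 69 bases before the start used, and the CCAAT boxes of Psmd9 and Psmd4 fall on bases that the gene table places within the gene, the first base of that core excepted. Psma5 holds 2 CCAAT boxes and 2 GC boxes, Psmc6 holds 3 GC boxes and Psme1 holds 1, both without a CCAAT box.

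In the 20S core, 7 of the 13 constitutive subunits were called higher and 1 lower at 24 h, and 5 were called higher at 48 h. The median log2 fold changes were 0.18 and 0.16. The alpha ring had 4 of 7 called higher at 24 h and 2 of 7 at 48 h, and the constitutive beta ring had 3 of 6 at both times. Of all genes 19.8% were called higher at 24 h and 18.9% at 48 h, and of the 3939 brighter genes 28.5% and 26.6%. The count of the alpha ring at 48 h was near the share of the brighter genes.

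Psma5, an alpha ring subunit, had the smallest adjusted p of its ring. Its signal at 24 h was 29227, 30345, 29316, 27283 and 27245 in the 100 uM cultures, against 19276, 20504, 22614, 20916 and 22840 in the DMSO cultures. All 100 uM arrays lay above all DMSO arrays, and the log2 fold change was 0.44 ± 0.06 (SE, limma adjusted p = 7.7e-07). At 48 h it had 26448, 26199, 26249, 25199 and 25929 at 100 uM and 20461, 19440, 20398, 20039 and 20052 in DMSO, a log2 fold change of 0.37 (adjusted p = 1.1e-05), again without overlap.

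Psma4 was called higher at both times, with log2 fold changes of 0.27 at 24 h and 0.25 at 48 h, and Psma2 (0.25) and Psma7 (0.18) were called higher at 24 h only. Psma1 and Psma6 were not called at either time. The estimate of Psma6 was 0.00 at both times, while Psma1 had all 5 arrays of 100 uM above DMSO at each time with adjusted p of 0.169 and 0.109. Under 24 alternative fits, Psma1 was called higher in 1 at 24 h and in 4 at 48 h. At 48 h Psma2 was called higher in 5 of them and Psma7 in 4.

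Psma3 went the other way on its own probe set. The signals at 24 h were 4338, 3375, 4767, 3932 and 4397 at 100 uM and 4613, 4815, 5306, 4973 and 4606 in DMSO, so that the groups overlapped in 1 array. The log2 fold change was -0.23 ± 0.07 (adjusted p = 0.0118), and it was -0.10 (adjusted p = 0.296) at 48 h. The call at 24 h was lost without replicate 2 of 100 uM (adjusted p = 0.073). A second probe set, annotated to both Psma3 and its near-identical copy Psma3l and so not used for the calls, averaged 42428 ± 1752 at 100 uM and 38927 ± 2094 in DMSO at 24 h, a log2 difference of 0.12, and 0.11 at 48 h. The probe sets therefore point in opposite directions, and the direction of Psma3 is uncertain.

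Among the beta subunits, Psmb7, which carries the trypsin-like cutting site, had the smallest adjusted p. It had 17497, 16398, 17205, 15868 and 16494 at 100 uM at 24 h, against 11930, 13515, 13838, 15425 and 14587 in DMSO. The groups did not overlap, and the log2 fold change was 0.27 ± 0.06 (adjusted p = 0.00023), with 0.29 (adjusted p = 0.00011) at 48 h. Psmb3, a structural beta subunit, was called higher at both times (0.28 and 0.28), as was Psmb2 (0.18 and 0.16), whose adjusted p was 0.0459 at 48 h.

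Psmb1, Psmb4 and Psmb5 were not called at either time. Under 24 alternative fits, Psmb4 was called higher in 1 at 24 h and 2 at 48 h, Psmb5 in 0 and 2, and Psmb1 in 0 at each time. Psmb5, which carries the chymotrypsin-like site and is the main target of proteasome inhibitors, had log2 fold changes of 0.15 ± 0.08 at 24 h (adjusted p = 0.15) and 0.15 ± 0.08 at 48 h (adjusted p = 0.17). A probe set annotated to both Psmb6, the caspase-like subunit, and Psmb6l1 was not used for calls. It averaged 22102 ± 1649 at 100 uM and 18015 ± 1752 in DMSO at 24 h, and 20850 ± 1054 and 16608 ± 1292 at 48 h, log2 differences of 0.30 and 0.33.

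The 20S core is assembled by chaperones encoded by Psmg1 to Psmg4. Psmg2 was called higher at both times, with 7146, 6615, 7005, 6571 and 6555 at 100 uM at 24 h against 4744, 5006, 5015, 5320 and 5463 in DMSO. The log2 fold change was 0.41 ± 0.06 (adjusted p = 1.4e-06) at 24 h and 0.27 (adjusted p = 0.00063) at 48 h, without overlap. Psmg3, which pairs with Psmg4, was called higher at 24 h (0.26, adjusted p = 0.0016) and was 0.11 at 48 h. Psmg1, the partner of Psmg2, had log2 fold changes of -0.11 and -0.11 and Psmg4 of -0.07 and -0.16, none of them called. Each pair thus held 1 called and 1 uncalled gene at 24 h, and the difference between partners was not tested.

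Of the 17 subunits of the 19S cap, 13 were called higher and 0 lower at each time, with median log2 fold changes of 0.23 at 24 h and 0.24 at 48 h, and all 17 estimates were above 0 at both times. No member of the cap had an unadjusted p under 0.05 for a decrease. The shares called over all genes were 19.8% higher and 15.8% lower at 24 h, and 18.9% and 14.5% at 48 h. Over the 3939 brighter genes they were 28.5% and 23.8% at 24 h, and 26.6% and 23.3% at 48 h. These shares also stand beside the counts of the cap's parts, its chaperones, the inducible subunits and the activators below.

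Of the 6 ATPases of the cap's base, 5 were called higher at 24 h (Psmc1, Psmc2, Psmc3, Psmc4 and Psmc6) and 5 at 48 h (Psmc1, Psmc2, Psmc4, Psmc5 and Psmc6). Psmc6 had 22143, 20169, 21248, 19492 and 19947 at 100 uM at 24 h, against 15172, 15528, 14637, 15021 and 16560 in DMSO. The log2 fold change was 0.42 ± 0.05 (adjusted p = 9.2e-08), with no overlap. At 48 h it had 20666, 19467, 20338, 19728 and 19144 at 100 uM, against 14679, 13147, 15695, 16461 and 15057 in DMSO, a log2 fold change of 0.41 (adjusted p = 1.8e-07). Again every 100 uM array was higher. The other 2 probe sets of Psmc6 gave log2 fold changes of 0.00 and -0.12 at 24 h and 0.19 and 0.03 at 48 h, none called, so its increase rests on 1 of 3 probe sets. When the probe sets were averaged Psmc6 was 0.10 at 24 h (adjusted p = 0.197). Psmc4, whose second probe set did not pass the filter, was called higher with 0.36 and 0.24.

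Among the non-ATPase subunits of the base, Psmd4 and Psmd2 were called higher at both times and Psmd1 at neither (0.08 and 0.02). Psmd4 is a ubiquitin receptor, which captures tagged proteins. It had 9595, 10776, 10039, 9844 and 8970 at 100 uM at 24 h, against 6026, 6800, 7514, 7290 and 7191 in DMSO. All 100 uM arrays were higher, with a log2 fold change of 0.50 ± 0.06 (adjusted p = 4.0e-08). At 48 h it averaged 8697 ± 304 at 100 uM and 7158 ± 370 in DMSO, a log2 fold change of 0.28 (adjusted p = 0.00038). Psmd2, a large scaffold subunit, had log2 fold changes of 0.23 and 0.25 (adjusted p = 0.0061 and 0.0029).

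In the lid, which holds the deubiquitinase Psmd14, 6 of 8 subunits were called higher at each time. Psmd11, a scaffold subunit of the lid, had 16501, 18510, 17016, 14706 and 14834 at 100 uM at 24 h, against 10886, 11653, 12557, 11959 and 12735 in DMSO. The groups did not overlap, and the log2 fold change was 0.44 ± 0.07 (adjusted p = 1.9e-06) at 24 h and 0.39 (adjusted p = 1.7e-05) at 48 h. A second probe set of Psmd11 gave 0.14 (adjusted p = 0.046) and 0.13 (adjusted p = 0.061). Psmd14 rose by 0.33 and 0.23 on its chosen probe set, and its other 2 probe sets gave 0.37 and 0.34 at 24 h and 0.36 and 0.40 at 48 h, all called higher. Psmd12 (0.28 and 0.20), Psmd6 (0.22 and 0.27) and Psmd13 (0.20 and 0.31) were called at both times, Psmd7 at 24 h (0.27) and Psmd3 at 48 h (0.39), while Psmd8 was called at neither. A second probe set of Psmd7 was called higher at both times, with 0.34 and 0.21.

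The 3 chaperones that assemble the cap's base, Psmd5, Psmd9 and Psmd10, were called higher at both times, with median log2 fold changes of 0.40 and 0.45. Psmd5 had the smallest adjusted p of all 44 genes at 24 h. It had 15300, 14690, 14908, 14196 and 13280 at 100 uM, against 9445, 9291, 10710, 10722 and 10715 in DMSO, a log2 fold change of 0.51 ± 0.05 (adjusted p = 4.1e-09). At 48 h it was 0.26 ± 0.05 (adjusted p = 0.00039). Psmd9 had 5765, 6216, 5879, 6053 and 5376 at 100 uM at 48 h, against 4220, 4443, 3847, 4535 and 4372 in DMSO, a log2 fold change of 0.45 ± 0.08 (adjusted p = 4.1e-05), with 0.33 (adjusted p = 0.0015) at 24 h.

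The increase of Psmd9 was not seen on its second probe set, which had a mean signal of 505 and log2 fold changes of -0.30 and -0.55, neither called, and with the 2 averaged the estimate was -0.05 at 48 h (adjusted p = 0.874). Psmd10, known as gankyrin and overexpressed in many liver cancers, had log2 fold changes of 0.40 ± 0.10 (adjusted p = 0.0026) and 0.53 ± 0.10 (adjusted p = 0.00014). It averaged 3332 ± 340 at 100 uM and 2518 ± 225 in DMSO at 24 h, and 3832 ± 393 and 2650 ± 179 at 48 h.

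**Figure D2:**
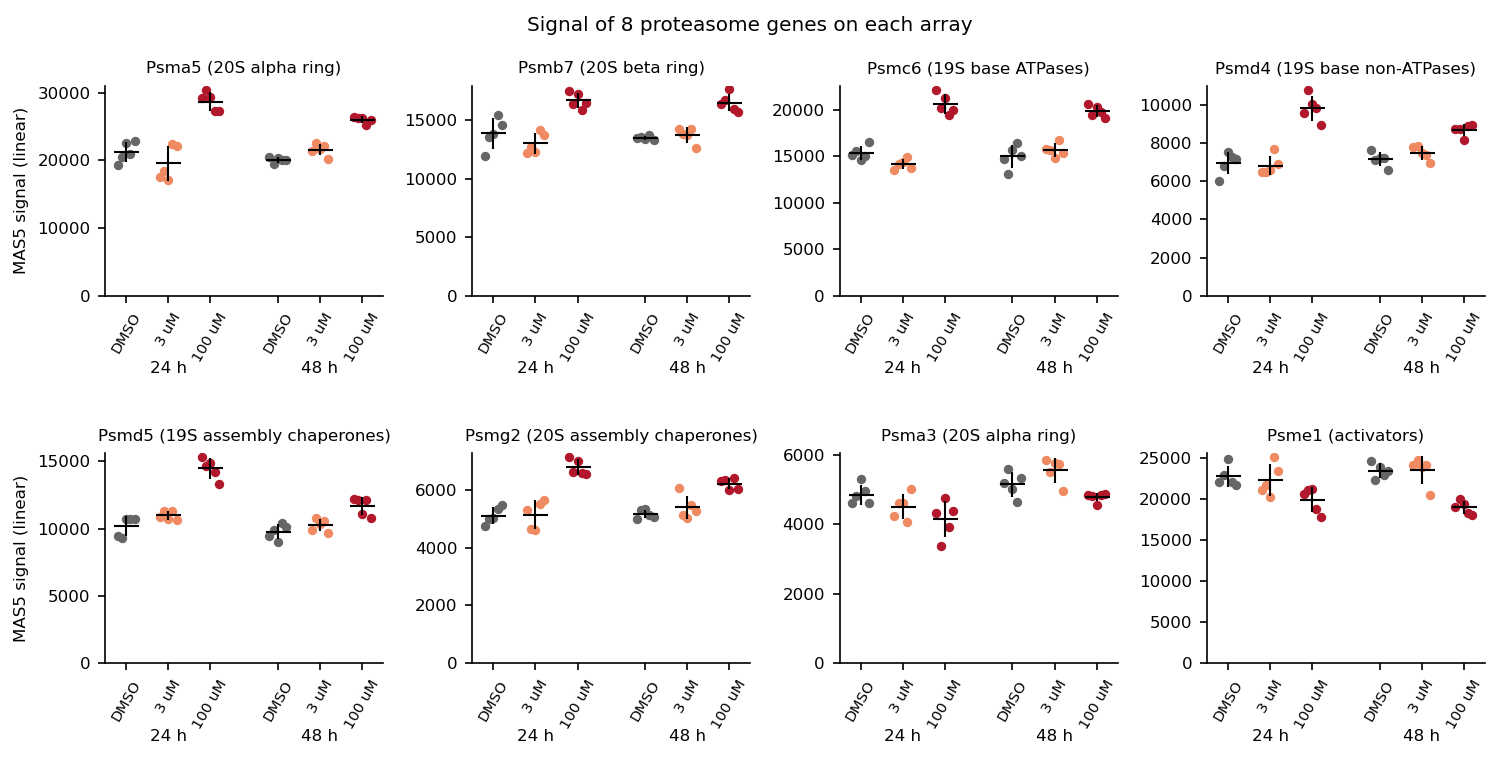
Deposited signal (linear, y axis) of 8 genes on each of the 30 arrays, with DMSO, 3 uM and 100 uM at 24 h on the left of each panel and at 48 h on the right. Points are arrays, bars the mean with SD (n = 5). At 24 h the 100 uM points of Psma5, Psmb7, Psmc6, Psmd4, Psmd5 and Psmg2 lie above every DMSO point, and those of Psme1 lie below.

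The inducible subunits Psmb8, Psmb9 and Psmb10, which interferon brings into the core, were not called at either time. Psmb9 had 5589, 5530, 5342, 4829 and 4304 at 100 uM at 24 h, against 4280, 4739, 6173, 6716 and 5684 in DMSO. The 100 uM values lay within the DMSO range, and the log2 fold change was -0.10 (adjusted p = 0.435), with 0.02 at 48 h (adjusted p = 0.885). Psmb8 gave 0.10 and 0.03. It had 3853, 3593, 3843, 3555 and 3474 at 100 uM at 24 h and 2720, 2809, 3733, 3818 and 4253 in DMSO. Psmb10 gave -0.30 ± 0.13 (adjusted p = 0.074) and -0.28 ± 0.13 (adjusted p = 0.109). Replicates 1 and 2 of DMSO at 24 h were the lowest of their group for all 3 of these genes.

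Of the 3 activators tested, Psme1 was called lower at both times. It had 20644, 21127, 21266, 18791 and 17777 at 100 uM at 24 h, against 22092, 22951, 24919, 22124 and 21780 in DMSO. All 100 uM arrays lay below all DMSO arrays, with a log2 fold change of -0.19 ± 0.06 (adjusted p = 0.0118). At 48 h it averaged 18984 ± 774 at 100 uM and 23453 ± 918 in DMSO, a log2 fold change of -0.31 ± 0.06 (adjusted p = 0.00016), again without overlap. The 24 h call was lost without replicate 5 of 100 uM (adjusted p = 0.054) and with arrays centred on their medians (adjusted p = 0.063), and both calls were lost when its 2 probe sets were averaged, of which the other had a mean signal of 311.

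Psme2, the partner of Psme1 in the PA28 ring, had log2 fold changes of -0.14 (adjusted p = 0.121) and -0.17 (adjusted p = 0.0624). It averaged 13375 ± 890 at 100 uM and 14756 ± 1265 in DMSO at 24 h. Psme4, which encodes the activator PA200, gave -0.15 (adjusted p = 0.185) and -0.14 (adjusted p = 0.235). One other probe set of Psme4, with a mean signal of 734, had 463, 327, 445, 279 and 278 at 100 uM at 24 h, against 699, 795, 674, 664 and 862 in DMSO. It was called lower at both times (log2 fold changes of -1.07 and -1.13, adjusted p = 8.5e-07 and 3.5e-07), and the other, with a mean of 4072, was not called. No probe set of a member was called in the direction opposite to that of the chosen one. The probe sets of the activator Psme3 are also annotated to Aoc3 and G6pc1 and were not used for calls. The brightest gave log2 differences of 0.28 at 24 h and 0.51 at 48 h, and another gave 0.19 and 0.14. The others gave -0.64 and -0.45, and -1.14 and -0.53. The direction of Psme3 is therefore uncertain. Psmf1, which encodes an inhibitor of the core, had 9226, 8393, 8111, 8877 and 7851 at 100 uM at 24 h, against 7420, 8733, 8767, 9516 and 8061 in DMSO. The groups overlapped, with log2 fold changes of 0.00 at 24 h and -0.05 at 48 h.

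Psme1, Psme2 and the inducible subunits are also highly expressed in immune cells. The 6 Kupffer cell and leukocyte markers that passed the filter summed to 8620 to 10723 at 100 uM and 12624 to 15045 in DMSO at 24 h, and to 5537 to 8657 and 11031 to 13473 at 48 h. Of the 6, 1 was called, Cd14, lower at both times (log2 fold changes of -0.68 and -1.05), and it made up most of the sum, with 7365 ± 498 at 100 uM and 11823 ± 847 in DMSO at 24 h. The defining leukocyte markers Ptprc, Cd163 and Adgre1 were below the filter. The part of these cells in the Psme1 result was not tested.

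Hepatocyte markers summed to 263908 to 356321 at 100 uM and 267375 to 335816 in DMSO at 24 h, with 1 of 5, Hnf4a, called lower (-0.37). At 48 h they summed to 242596 to 284872 and 264751 to 313452, with 0 called and 0 at an unadjusted p under 0.05. Of 4 tested stellate cell and fibroblast markers 1, Des, was called higher at 48 h. Of the 2 tested cholangiocyte markers, Epcam was called higher at 24 h and both Epcam and Krt19 lower at 48 h. Kdr, the endothelial marker that passed the filter, was not called.

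Taking the median over the subunits of each part, array by array, shows how far the groups stood apart. Relative to the DMSO mean of the same time, the median cap subunit stood at 0.28, 0.32, 0.27, 0.25 and 0.17 (log2) in the 24 h arrays of 100 uM, against -0.09, -0.04, 0.07, 0.02 and 0.08 in DMSO. At 48 h it stood at 0.24, 0.25, 0.26, 0.25 and 0.21 against 0.06, -0.02, 0.02, -0.01 and -0.02. The core's median was 0.19, 0.25, 0.26, 0.16 and 0.08 at 100 uM at 24 h, against -0.07, -0.05, 0.05, -0.02 and 0.09 in DMSO. The cap's groups did not overlap at either time, and 1 core value of 100 uM, in replicate 5, lay within the DMSO range at 24 h.

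**Figure D3:**
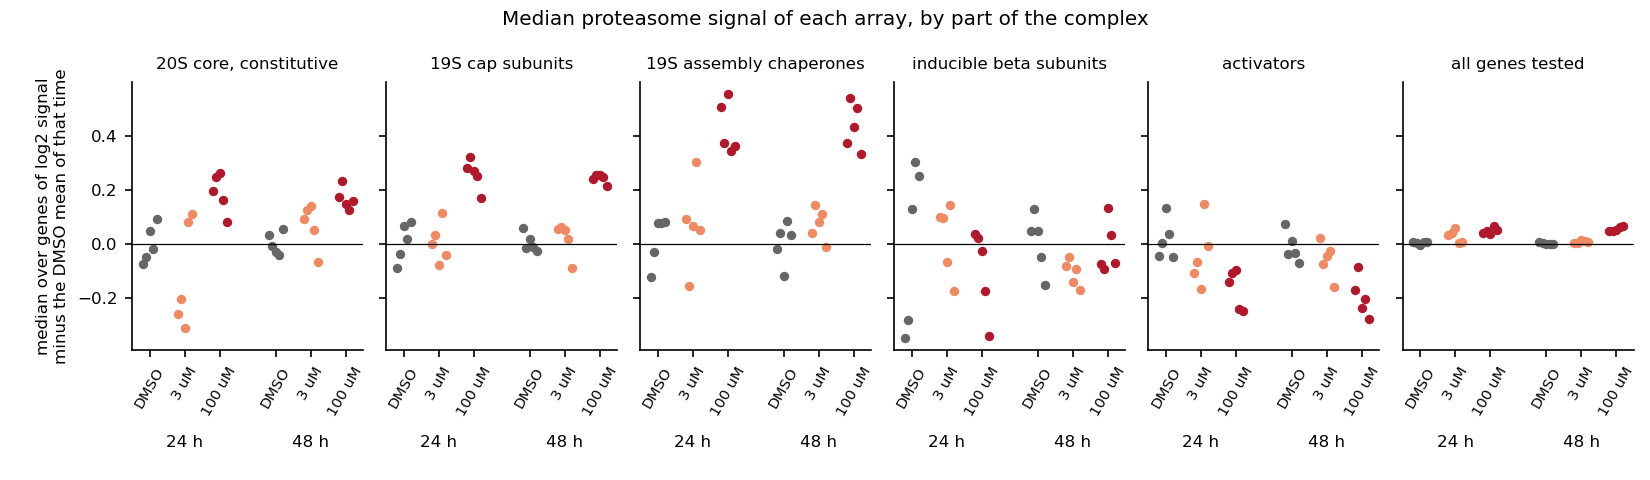
Median log2 signal over the genes of each part of the complex, minus the DMSO mean of the same time (y axis), for DMSO, 3 uM and 100 uM at 24 h and 48 h, 1 point an array. The last panel shows all genes tested. The 100 uM points of the cap and the cap chaperones lie above every DMSO point at both times, and 3 of the 5 points of 3 uM at 24 h lie below every other point of the core.

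At 3 uM, 3 genes were called higher at 24 h and 0 lower (4 each way at an unadjusted p under 0.05). Of all genes 2.99% were called higher and 1.22% lower, and of the 3939 brighter genes 5.15% and 2.51%. They were the base scaffold Psmd2, the lid subunit Psmd3 and the activator Psme4. None of the 3 was called without replicates 1 to 3, the arrays with the high beta-actin ratios.

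Psmd2 had 13942, 14145, 15247, 11048 and 10867 at 3 uM at 24 h, against 9817, 9576, 10519, 10306 and 10799 in DMSO. The first 3 arrays were the highest, and the log2 fold change was 0.34 ± 0.07 (adjusted p = 0.0049). Without them it was 0.10 (adjusted p = 0.547). Psme4 had 10801, 10707, 12193, 7975 and 7312 at 3 uM, against 7937, 7587, 7274, 7781 and 7321 in DMSO. Its log2 fold change was 0.34 ± 0.09 (adjusted p = 0.0223), and 0.01 (adjusted p = 0.979) without replicates 1 to 3. Psmd3 had 3518, 3498, 3742, 3111 and 2868 at 3 uM and 3104, 2411, 2913, 2450 and 2729 in DMSO, with 0.30 ± 0.08 (adjusted p = 0.032) and 0.14 (adjusted p = 0.711) without them.

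The same 3 arrays were low for the 20S core. Psma5 had 17598, 18437 and 17090 in them and 22423 and 22135 in replicates 4 and 5. Of its 13 subunits, 9 had all 3 of these arrays below every DMSO array, and the median log2 difference to DMSO was -0.26 in replicates 1 to 3 and 0.10 in replicates 4 and 5. For the 17 cap subunits those medians were -0.02 and 0.02, with 3 subunits all below and 4 all above. Psmb1, for example, had 35391, 31711 and 27661 in replicates 1 to 3 and 49209 and 50165 in replicates 4 and 5, against 42940, 41395, 49133, 43325 and 49874 in DMSO. The part of RNA length in these values was not tested.

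**Figure D4:**
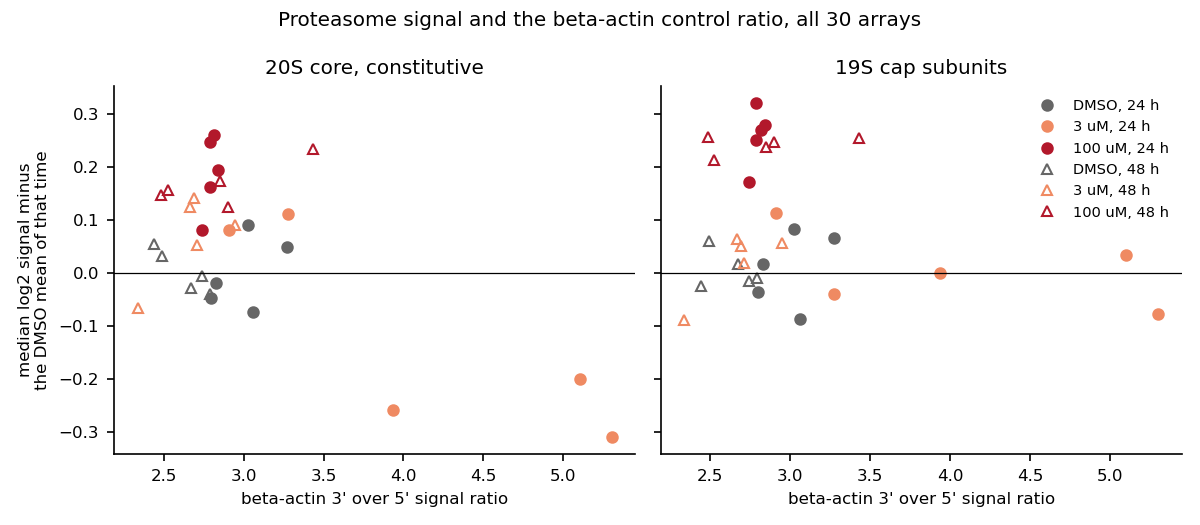
Median log2 signal of the 13 core subunits (left) and the 17 cap subunits (right), minus the DMSO mean of the same time (y axis), against the beta-actin 3′/5′ ratio (x axis), 1 point an array. The 3 arrays of 3 uM at 24 h with ratios of 3.93, 5.10 and 5.30 have core medians of -0.26, -0.20 and -0.31 and cap medians of 0.00, 0.03 and -0.08.

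After 48 h at 3 uM, 0 genes were called in either direction by limma, against 0.0196% of all genes each way, and 1 of the 44, Psmd6, had an unadjusted p under 0.05 (-0.13). The median log2 fold change of the members was 0.04 and their largest was 0.19. Psma5, for example, averaged 21592 ± 867 at 3 uM and 20078 ± 406 in DMSO.

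Between the doses, at 100 uM against 3 uM, 27 members were called higher and 2 lower at 24 h, against 19.8% and 19.1% of all genes and 31.6% and 26.5% of the 3939 brighter genes. The 2 lower were Psme1 (-0.16, adjusted p = 0.031) and Psme4 (-0.50, adjusted p = 2.1e-05). Without replicates 1 to 3 of 3 uM, Psme4 was no longer called (-0.16, adjusted p = 0.076), and Psme1 was called with -0.29 (adjusted p = 0.0029). Without the same arrays, 14 were called higher, and the share of all genes was not counted in that fit. The core's median log2 fold change was then 0.04, against 0.31 with them, and the cap's was 0.20, against 0.26. At 48 h, 21 were called higher and 2, Psme1 (-0.31) and Psma3 (-0.22), lower, against 16.2% and 12.6% of all genes and 23.6% and 21.6% of the brighter ones. Of the 17 cap subunits 13 were called higher then, with a median of 0.21, and of the 13 core subunits 4 were, with a median of 0.08. These comparisons share the 100 uM arrays with those against DMSO.

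Time alone called none of the members. In DMSO cultures at 48 h against 24 h, limma called 0 of the 44 in either direction, against 2.57% higher and 1.91% lower of all genes. An unadjusted p under 0.05 was reached by 1, Psme2 (0.17, adjusted p = 0.189), and the log2 fold changes of the members ran from -0.17 to 0.18.

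The change of the 100 uM effect between 24 h and 48 h was called for 0 members, against 0.616% higher and 1.04% lower of all genes. Psmd5 (-0.25 ± 0.08, adjusted p = 0.106) and Psmd4 (-0.22 ± 0.09, adjusted p = 0.278) had an unadjusted p under 0.05, with lower estimates at 48 h than at 24 h. For 3 uM the change was called for 0 members, as for 0 of all genes (0% each way), with 7 higher and 3 lower at an unadjusted p under 0.05. The lower ones included Psme4 (-0.45) and Psmd2 (-0.31), which were high in replicates 1 to 3 of 3 uM at 24 h. Of the 7 higher, 6 were constitutive core subunits, whose median log2 difference to DMSO was -0.26 in the same arrays.

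Genes that work with the proteasome were read from 4 lists, whose counts stand beside the 19.8% called higher and 15.8% called lower of all genes at 24 h and the 18.9% and 14.5% at 48 h. Of 13 associated factors tested, 6 were called higher at 24 h and 5 at 48 h, and 0 lower (7 and 6 had an unadjusted p under 0.05), with medians of 0.36 and 0.16. Zfand2a, which encodes the arsenite-inducible factor AIRAP, averaged 10467 ± 1333 at 100 uM and 3748 ± 464 in DMSO at 24 h, a 2.79-fold difference (log2 1.48, adjusted p = 2.7e-12), and 7461 ± 703 and 3354 ± 347 at 48 h. It was called higher at 3 uM at 24 h (0.48, adjusted p = 0.017), but not without replicates 1 to 3 of that group (0.11, adjusted p = 0.83). Zfand5, another activator of the proteasome with a zinc finger, was called higher with 0.47 and 0.32. The cap's deubiquitinases Uchl5 (0.48 and 0.51) and Usp14 (0.36 and 0.23) were called higher at both times, as was Fbxo7 (0.37 and 0.29). Akirin2, which helps import proteasomes into the nucleus, was called higher at 24 h (0.64, adjusted p = 0.0066). Pomp, the maturation factor of the core, was not called at either time.

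Of the 10 tested genes of the NFE2L1 pathway, 2 were called higher and 4 lower at 24 h and 2 higher and 3 lower at 48 h, of which the higher count is near the share of all genes. Nfe2l1 itself had log2 fold changes of 0.07 (adjusted p = 0.697) and 0.03 (adjusted p = 0.859), with 2906 ± 386 at 100 uM and 2753 ± 246 in DMSO at 24 h. Ddi2, the protease that cuts NFE2L1 into its active form, averaged 1658 ± 146 at 100 uM and 3883 ± 646 in DMSO at 24 h (log2 fold change -1.22, adjusted p = 4.9e-12) and 1882 ± 135 and 3305 ± 133 at 48 h (-0.81, adjusted p = 3.1e-08). Ngly1, which removes sugars from NFE2L1, was called lower with -0.40 and -0.26, and so was the ubiquitin ligase Syvn1, with -0.63 and -0.35. Its partner Sel1l was called lower at 24 h (-0.48). The related factor Nfe2l2 (0.26 and 0.29) and Ufd1 (0.54 and 0.28), which helps extract proteins from the endoplasmic reticulum, were called higher.

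Of 8 genes for ubiquitin activation and shuttling, 3 were called higher at 24 h and 2 at 48 h, the count at 48 h being near the share of the brighter genes (26.6%). Ubqln1 (0.31 and 0.41) and Rad23b (0.17 and 0.18), which carry ubiquitin-tagged proteins to the cap, were called at both times and Sqstm1 (0.26) at 24 h. Of 7 antigen processing and interferon genes, 0 were called higher, and 1 was called lower at 24 h, Erap1 (-0.28), with 0 called at 48 h (1 had an unadjusted p under 0.05 at each time).

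**Figure D5:**
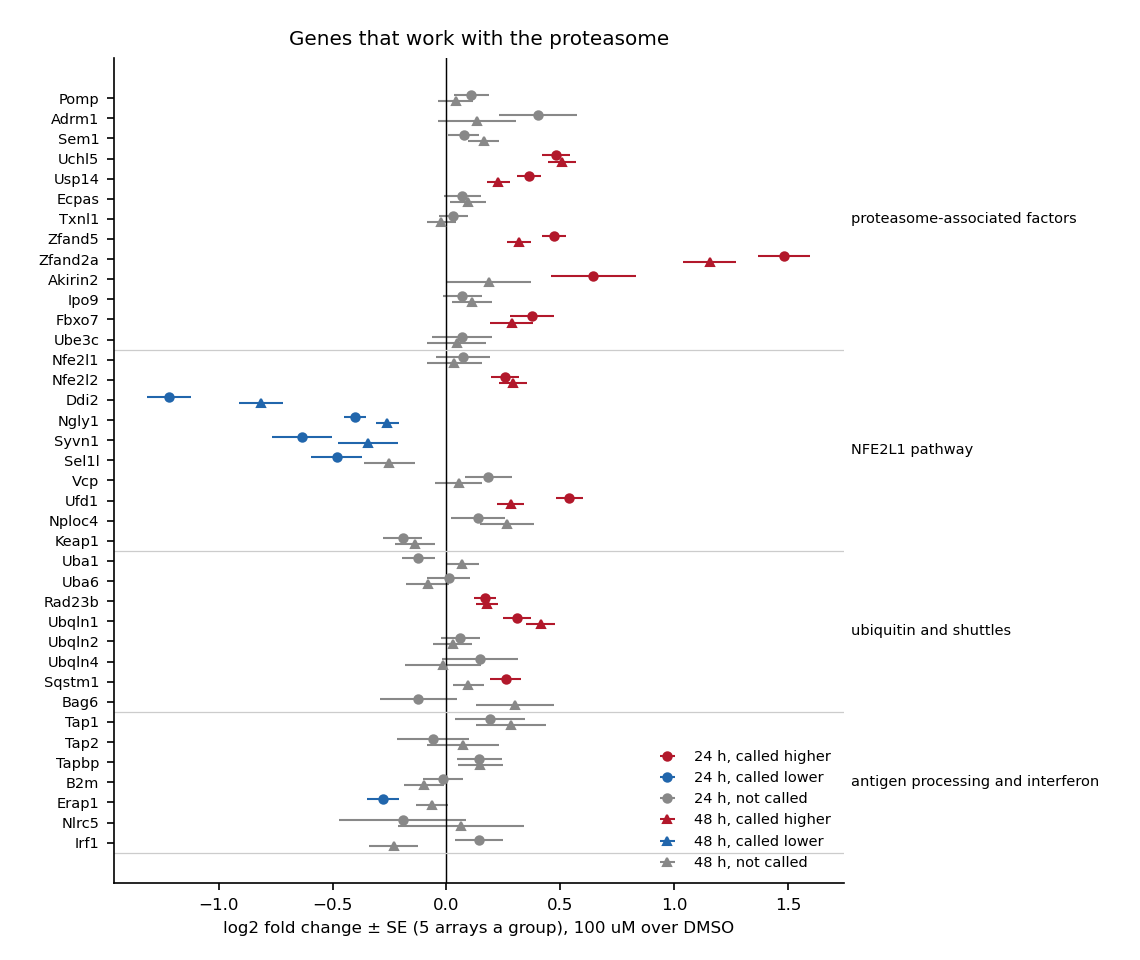
Log2 fold change at 100 uM over DMSO (x axis) of 38 genes that work with the proteasome, grouped by list (y axis), with 24 h as circles and 48 h as triangles and standard errors from limma (5 arrays a group). Zfand2a lies farthest to the right, at 1.48 and 1.15, and Ddi2 farthest to the left, at -1.22 and -0.81.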

How the data were processed

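RNA of 30 hepatocyte cultures was hybridised to a rat whole-genome array. The deposited intensity values are linear probe set signals, made with MAS5 per the submitters' processing notes, with its version and any detection calls not given in the sources used here. Array medians ran from 362 to 471. Precision is limited by the number of arrays.

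Genes were assigned from the platform annotation, with symbols brought up to date through the RefSeq gene table (20826 had 1 symbol, 436 several). Log2 of the signal was analysed with nothing added. A probe set passed if it lay above the array's median on 5 or more arrays, and the one with the highest mean stood for its gene. The 44 genes had 58 probe sets, 9 of them more than 1, and 6 probe sets shared with other genes were left out of the calls. The 6 group means were estimated together over the 30 arrays in limma 3.58.1 (R 4.3.3, 24 residual degrees of freedom, eBayes with trend). Tests were two-sided, with Benjamini-Hochberg adjustment over 10222 genes and calls at an adjusted p under 0.05. The fit was tested on simulated data. Promoters were read from RefSeq windows of GRCr8.

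The genes given with array values are, in each part of the complex, the one with the smallest adjusted p at 100 uM at each time, every gene called lower, those called at 3 uM, and the 2 brightest where none was called. Of each list of related genes the rule takes the 4 with the smallest adjusted p among those called. The other genes and probe sets given with values, such as Psmb1, Psmd10, Akirin2, Fbxo7, Nfe2l1, Nfe2l2 and Sel1l, were chosen after their values were seen. Members, lists and alternatives were chosen with earlier results of these data known. Alternatives changed the scaling, filter, low values, probe sets, variance model, arrays, weights, array order, threshold, the beta-actin ratio and each array in turn.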

Additional observations from a re-analysis of the deposited data

Results flagged for a closer look

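In groups of 5 arrays, 11 of 264 combinations of gene and group held an array whose gap to the others exceeded Dixon's critical value of 0.71, and chance alone flags about 1 in 20. At 24 h, replicate 1 of 100 uM had 10687 for Psmg4, against 13846 to 14114 in the other 4 arrays of its group. Replicate 3 of 100 uM had 32746 for Psmb5, against 26106 to 27178, and replicate 4 of 3 uM had 6016 for Psmd9, against 4147 to 4522.

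At 48 h, replicate 3 of 100 uM was low for Psmd4, with 8174 against 8732 to 8934, and for Psma3, with 4566 against 4826 to 4877. Replicate 5 of 100 uM had 11649 for Psmc5, against 12720 to 13174. Replicate 5 of 3 uM was low for 3 genes, Psmc2 (25881 against 28087 to 28937), Psmd12 (8559 against 9399 to 9762) and Psme1 (20521 against 23965 to 24823). In DMSO, replicate 1 had 11026 for Psmd2, against 9979 to 10257, and replicate 2 had 13558 for Psmd6, against 12709 to 12839.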

How the results depend on the processing

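The labels give no replicate numbers. Their array numbers fall into 5 runs of 6 with 1 array of each group, and with these runs as blocks 25 members were called higher and 2 lower at 100 uM at 24 h and 21 and 1 at 48 h, and no count of called members moved by over 1.5 times. Centring arrays on their medians gave 16 higher and 1 lower at 100 uM at 24 h and 10 higher at 48 h, and in 100 uM against 3 uM 14 higher at 24 h and 9 higher and 1 lower at 48 h. No scaling moved the median of all genes by over 0.1. With the stricter thresholds and the omission of single arrays set aside, the alternatives gave 16 to 27 higher at 100 uM at 24 h and 10 to 29 at 48 h. Shares of all genes called were counted in the main fit only. Requiring 1.5-fold left 0 called in every comparison with calls. At an adjusted p under 0.01, 0 were lower at 100 uM at 24 h, 1 was higher at 3 uM at 24 h, and 1 was lower at each time in 100 uM against 3 uM. Members lower at 100 uM at 48 h numbered 2 with quantile normalization or the beta-actin ratio as covariate and 4 with array weights or the compared groups alone.

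At 3 uM and 24 h, 0 were called higher with the compared groups alone, with the actin covariate or without replicates 1 to 3, where the median was 0.080. Array weights gave 6 higher and 14 lower, and for the change of the 3 uM effect 11 higher and 3 lower. In 100 uM against 3 uM, array weights gave 5 lower at 24 h and 4 at 48 h, and the compared groups alone gave 1 at 24 h. At 24 h that comparison had 14 higher without replicates 1 to 3, and its median of 0.26 was 0.19 with quantile normalization, 0.19 centred, 0.15 with the covariate and 0.14 without them. The median change of the 3 uM effect, 0.05, was -0.016 centred and -0.044 without them. Leaving out each array in turn gave 22 to 26 higher and 1 to 3 lower (median 0.18 to 0.20) at 100 uM and 24 h, 20 to 22 and 1 to 2 (0.15 to 0.18) at 48 h, 1 to 6 and 0 to 6 (-0.10 to -0.02) at 3 uM and 24 h, 23 to 29 and 1 to 3 (0.21 to 0.29) in 100 uM against 3 uM at 24 h and 17 to 21 and 1 to 2 (0.13 to 0.15) at 48 h. Psmd9 at 48 h was -0.049 with its probe sets averaged, and without replicates 1 to 3 of 3 uM Psma1, Psmb1 and Psmb4 were -0.0051, -0.079 and -0.021 in 100 uM against 3 uM at 24 h. Of the genes called at 100 uM, 14 of 27 at 24 h and 9 of 23 at 48 h were called in the same direction under every alternative, the 2 stricter thresholds aside. The causes were not tested.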
